A study of Mus musculus with 4 samples.

Results

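The anaphase-promoting complex and the spindle checkpoint that restrains it were followed through 35 genes, chosen by symbol from the deposited gene annotation and joined by identifier to a table of 54232 genes. The set fell into 4 classes: 14 core subunits of the complex, 5 genes for its activators, ubiquitin-conjugating (E2) enzymes and inhibitor, 14 checkpoint proteins, and the pair of genes for securin and separase. RNA came from RPP631, a line of mouse small cell lung cancer (SCLC) cells, after 48 h with the vehicle DMSO or with YKL at 100 nM; the series title names YKL as an inhibitor of the kinase CDK7. Each condition had 2 libraries of bulk RNA sequencing. All libraries came from the same line, and the labels do not say whether a pair of libraries came from separate cultures, so p-values reflect no more than the spread among these libraries, which may be technical. All 35 genes passed the filter on low counts, and all were among the 16749 genes tested.

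The anaphase-promoting complex, or APC/C, is the ubiquitin ligase that ends mitosis. A scaffold of core subunits recruits 1 of its activators, CDC20 at the start of anaphase or CDH1 (the product of Fzr1) from late mitosis through G1, and works with the E2 enzymes UBE2C, which starts ubiquitin chains, and UBE2S, which extends them. Until every chromosome is attached to the spindle, unattached kinetochores catalyse the assembly of MAD2, BUBR1 and BUB3 on CDC20, which holds the ligase inactive and so protects securin and cyclin B from destruction. In dividing cells, transcripts of several of these genes rise in G2 and mitosis, while those of the core subunits are present throughout the cycle. In bulk RNA, fewer cells in one phase of the cycle and less of a transcript in each cell cannot be told apart.

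The promoters of the genes that were lower in YKL are shown with 2 motifs known from promoters of mitotic genes. Having at least 1 of them is common: all 4 of these promoters do, as do 22 of the 33 members with a RefSeq window and 5932 tested genes, against 5783 tested genes with neither. Each stretch runs 5′ to 3′ along the gene's strand from 120 bases before the RefSeq start site to 30 bases after it (RefSeq, build GRCm38.p6). Capitals mark matches on either strand to the cell cycle homology region (TTTGAA or TTCGAA) and to the CCAAT box (CCAAT). No match of one motif overlapped a match of the other in these stretches. They lie at chr4:118437314-118437463 (minus strand) for Cdc20, chr2:164769809-164769958 (plus strand) for Ube2c, chr10:81378341-81378490 (minus strand) for Fzr1 and chr2:127831830-127831979 (minus strand) for Bub1. The promoter of the core subunit gene Cdc27, at chr11:104550591-104550740 (minus strand), is set beside them as the uncalled core gene with the largest difference between the groups.
Cdc20: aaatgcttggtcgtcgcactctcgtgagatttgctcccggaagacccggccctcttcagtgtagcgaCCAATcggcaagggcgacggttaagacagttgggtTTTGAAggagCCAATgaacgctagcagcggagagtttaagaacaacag
Ube2c: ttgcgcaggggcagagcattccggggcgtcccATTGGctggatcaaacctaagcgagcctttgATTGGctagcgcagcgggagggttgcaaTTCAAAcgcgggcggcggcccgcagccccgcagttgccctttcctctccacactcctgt
Fzr1: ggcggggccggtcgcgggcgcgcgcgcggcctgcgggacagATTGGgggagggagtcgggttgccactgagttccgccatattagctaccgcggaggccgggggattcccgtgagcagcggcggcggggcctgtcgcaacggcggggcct
Bub1: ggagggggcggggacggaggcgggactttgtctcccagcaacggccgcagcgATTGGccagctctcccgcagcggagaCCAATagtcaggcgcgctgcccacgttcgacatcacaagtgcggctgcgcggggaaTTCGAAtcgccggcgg
Cdc27: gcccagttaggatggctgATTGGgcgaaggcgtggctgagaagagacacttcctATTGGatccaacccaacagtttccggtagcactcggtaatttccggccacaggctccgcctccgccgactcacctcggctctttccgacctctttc

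Depth ranged from 29817387 to 34189709 counts per library, and mitochondrial transcripts took 1.01% to 1.78% of counts. The DMSO libraries were not alike for these genes, since 28 of the 35 were higher in replicate 1 than in replicate 2, with a median log2 difference of 0.19 against 0.00 for all genes tested. In YKL, 18 of the 35 were higher in replicate 1. All 11 neuroendocrine SCLC markers were above 1 CPM (read counts scaled to library size with TMM factors) in each library, with a summed level of 5063 to 5742 CPM in DMSO and 4313 to 4428 CPM in YKL, and 1 of them, Nkx2-1, was called lower. Leukocyte markers summed to 0.478 to 0.825 CPM in DMSO and 1.55 to 1.86 CPM in YKL, with Cd3e at 0 in all libraries and 1 of 6, Ptprc, called higher. Fibroblast markers summed to 12.9 to 27.3 CPM in DMSO and 19 to 45.3 CPM in YKL. Most of that sum was Pdgfra, at 11.5 and 23.1 CPM in DMSO and 43.1 and 17.6 CPM in YKL. It was the only 1 of the 6 above 1 CPM in all libraries. Endothelial markers summed to 2.33 to 4.08 CPM and lung epithelial markers to 7.17 to 16.3 CPM over all libraries. Most of the lung epithelial sum was Foxj1, at 8.58 and 4.89 CPM in DMSO and 14 and 15.4 CPM in YKL. The part of these differences in the results was not tested.

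After 48 h in YKL, 4 of the 35 genes were lower and 0 were higher at an edgeR adjusted p under 0.05, and 31 were not called. The 4 were the activators Cdc20 and Fzr1, the E2 gene Ube2c and the checkpoint kinase gene Bub1. Over all genes tested, 1.44% were called lower and 2.1% higher, or 3.54% in either direction. At an unadjusted edgeR p under 0.05, 11 of the 35 were lower and 1 was higher, against 9.9% and 11.3% of all genes tested. DESeq2 called 8 lower and 0 higher, against 5.61% and 5.96% of all genes to which it gave an adjusted p. The log2 fold change of YKL over DMSO was below 0 in 23 of the 35, with a median of -0.28, against 50% of all genes tested and a median of 0.00. Both YKL libraries lay below both DMSO libraries in 20 of the genes, a pattern that 25.3% of all genes tested showed, and above both in 4, a pattern that 27% of all genes showed. A fit with a library left out has 1 library in a group, so its spread comes from the other group alone. The number called lower depended on single libraries, as it did over all genes tested. Without DMSO replicate 2 it was 8 (6.06% of all genes), without YKL replicate 1 it was 3 (0.274%) and without YKL replicate 2 it was 2 (0.108%). Cdc20 and Ube2c were called in each of the 12 alternative fits.

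**Figure D1:**
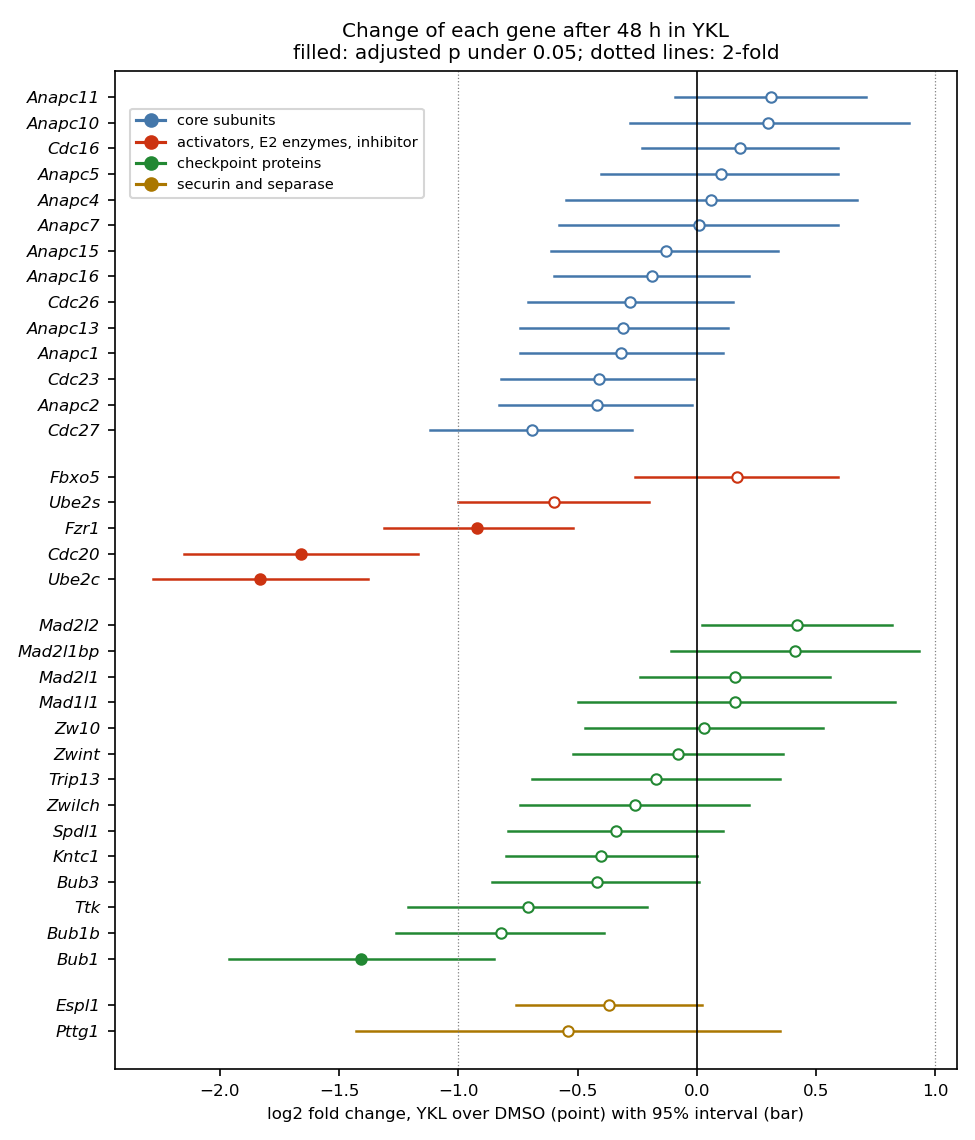
Log2 fold change of YKL over DMSO (x axis) for each of the 35 genes (rows, coloured by class), with the point estimate of edgeR and its 95% interval. Filled points are the 4 genes called at an adjusted p under 0.05, which lie between -1.83 and -0.92, and the uncalled genes lie between -0.82 and 0.42.

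The activators and E2 enzymes held 3 of the 4 calls. Cdc20, the activator that starts anaphase and the direct target of the checkpoint, stood at 288 and 197 CPM in the DMSO libraries and at 75.2 and 78.4 CPM in the YKL libraries. The groups did not overlap, although the DMSO libraries differed more from each other than the YKL libraries did. Cdc20 fell by 1.66 ± 0.22 on the log2 scale (SE; edgeR adjusted p = 0.0102). Without DMSO replicate 1, the higher of the pair, its log2 fold change was -1.35, and without DMSO replicate 2 it was -1.94. The gene spans positions 118432901 to 118437352 of chromosome 4 on the minus strand (mm10), and 53 of its 1868 exonic bases lie under exons of Elovl1 on the opposite strand. Of the 50-base windows of its transcripts, 10.6% also occur in another gene, among them Gm7856, so part of its count is uncertain.

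Ube2c, the E2 gene that starts ubiquitin chains on APC/C substrates, had 292 and 227 CPM in DMSO and 77.7 and 68.6 CPM in YKL. The lowest DMSO library was well above the highest YKL library. Ube2c fell by 1.83 ± 0.20 on the log2 scale (SE; edgeR adjusted p = 0.00795), the lowest log2 fold change among the 35 genes. It lies on chromosome 2 from 164769898 to 164778822 on the plus strand. Exons of Tnnc2 on the opposite strand cover 592 of its 2600 exonic bases, and Tnnc2 had 0 CPM in these libraries. The strand setting of the counting is not known here, so the effect of this overlap on the count of Ube2c is not known either. In all, 16% of the 50-base windows of Ube2c occur in another gene.

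Fzr1, which encodes the activator CDH1, stood at 121 and 114 CPM in DMSO and at 62.5 and 62.4 CPM in YKL. The libraries of each group lay close together, and the groups did not overlap. Fzr1 fell by 0.92 ± 0.18 on the log2 scale (SE; edgeR adjusted p = 0.0294). This call was lost without YKL replicate 1 (edgeR adjusted p = 0.177), without YKL replicate 2 (0.19) and with total count scaling (0.0506), with log2 fold changes that stayed between -0.99 and -0.87 in every alternative fit. The gene lies on chromosome 10 from 81366222 to 81378516 on the minus strand and shares 4 exonic bases with Mfsd12 on the opposite strand.

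The other members of this class were not called. Ube2s, the E2 gene whose product extends chains, had 99.1 and 92.9 CPM in DMSO and 60.7 and 65.6 CPM in YKL. Its groups did not overlap, yet its log2 fold change of -0.60 ± 0.18 (SE) missed the threshold (edgeR adjusted p = 0.0951). DESeq2 called Ube2s lower (adjusted p = 0.0281). Without DMSO replicate 2, which leaves 1 DMSO library, its log2 fold change was -0.68. Fbxo5 encodes EMI1, the inhibitor that keeps APC/C with CDH1 silent from the G1/S transition into early mitosis. Fbxo5 had 136 and 107 CPM in DMSO and 137 and 136 CPM in YKL, and the YKL libraries lay at the level of the higher DMSO library. Its log2 fold change was 0.17 ± 0.19 (SE; edgeR adjusted p = 0.676), and its 95% interval ran from -0.26 to 0.59. Summed over the 5 genes, this class took 936 and 738 CPM in DMSO and 413 and 411 CPM in YKL.

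**Figure D2:**
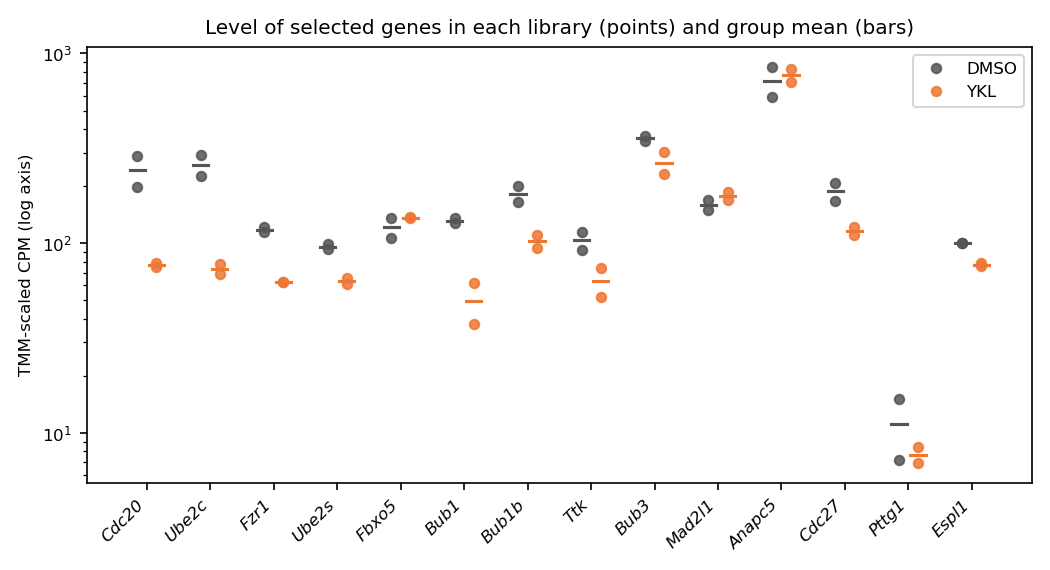
Level of 14 genes in each library (points) and the mean of each group (bars) as TMM-scaled CPM on a log axis, with DMSO in grey and YKL in orange. The YKL points of Cdc20, Ube2c, Fzr1 and Bub1 lie below their DMSO points, while those of Fbxo5, Mad2l1, Anapc5 and Pttg1 overlap them or lie within their range.

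The 14 core subunits gave 0 calls with edgeR, where 3 of them had an unadjusted p under 0.05 (Anapc2, Cdc23 and Cdc27, all lower) and DESeq2 called 1, Cdc27. Their log2 fold changes ran from -0.69 to 0.31 with a median of -0.16, and 8 of the 14 were below 0. For 13 of the 14 the whole 95% interval lay within a 2-fold change in either direction. Both YKL libraries lay below both DMSO libraries in 8 core genes and above both in 2, against 25.3% and 27% of all genes tested. Of all genes tested, 9.9% were lower at an unadjusted edgeR p under 0.05, and DESeq2 called 5.61% of its genes lower. Summed over the class, core subunits took 2229 and 1769 CPM in DMSO and 1965 and 1901 CPM in YKL, and both YKL sums lay between the DMSO sums.

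Cdc27, which encodes a tetratricopeptide-repeat subunit that binds the activators, had 208 and 167 CPM in DMSO and 111 and 121 CPM in YKL. Its groups did not overlap, and its log2 fold change was -0.69 ± 0.19 (SE; edgeR adjusted p = 0.0777). It was called without the filter on low counts (edgeR adjusted p = 0.0175), with the replicate number as a block (0.0452) and by DESeq2 (adjusted p = 0.0153). Without DMSO replicate 2, which leaves 1 DMSO library, the log2 fold change of Cdc27 was -0.88. Of the related repeat subunits, Cdc23 had a log2 fold change of -0.41, Cdc16 of 0.18 and Anapc7 of 0.01. Exons of Kif20a, itself a mitotic gene, cover 13.3% of the exonic bases of Cdc23 on the opposite strand. The overlap may affect the value of Cdc23.

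Anapc5, a platform subunit and the core gene with the highest level per length, had 850 and 587 CPM in DMSO and 827 and 710 CPM in YKL. Both YKL libraries fell inside the range of the DMSO libraries, and the log2 fold change was 0.10 ± 0.22 (SE; edgeR adjusted p = 0.856). The other platform subunits, Anapc1 and Anapc4, were at -0.32 and 0.06. The values of Anapc4, Anapc5 and Anapc7 turned negative without DMSO replicate 2 and without YKL replicate 1, at -0.33, -0.18 and -0.34 in the first case and -0.03, -0.01 and -0.19 in the other. The catalytic pair was split in sign, with the cullin-like Anapc2 at -0.42 and the RING subunit Anapc11 at 0.31, and neither was called. Anapc10, which helps to bind substrates, was at 0.30. Of the small subunits, Cdc26, Anapc13 and Anapc16 were at -0.28, -0.31 and -0.19, and Anapc15, which promotes the release of CDC20 from the checkpoint complex, was at -0.13. Anapc15 shares 38.4% of its exonic bases with Tomt on the opposite strand, a gene at 0.361 CPM.

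The 14 checkpoint genes gave 1 call in edgeR, Bub1, and DESeq2 called 3. Their log2 fold changes ran from -1.41 to 0.42 with a median of -0.21, and 9 of the 14 were below 0. At an unadjusted edgeR p under 0.05, 4 were lower and 1 was higher, against 9.9% and 11.3% of all genes tested. For calls lower, the shares over all genes were 1.44% with edgeR and 5.61% with DESeq2. Summed over the class, checkpoint genes took 1708 and 1482 CPM in DMSO and 1319 and 1268 CPM in YKL.

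Bub1 encodes the kinetochore kinase that recruits the other BUB and MAD proteins and marks centromeric chromatin for shugoshin. It had 136 and 127 CPM in DMSO and 61.8 and 37.5 CPM in YKL. The groups did not overlap, and the YKL libraries differed more from each other than the DMSO libraries did. Bub1 fell by 1.41 ± 0.25 on the log2 scale (SE; edgeR adjusted p = 0.0249). Without YKL replicate 2, its lower library, the log2 fold change was -1.09 and the call was lost (edgeR adjusted p = 0.12), as it was with total count scaling (0.0575). The gene spans positions 127801122 to 127831865 of chromosome 2 on the minus strand, and no exon of another gene overlaps its exons in the count table.

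The paralogue Bub1b, which encodes the checkpoint effector BUBR1, had 199 and 164 CPM in DMSO and 111 and 93.9 CPM in YKL. Its groups did not overlap, and its log2 fold change of -0.82 ± 0.19 (SE) lay just outside the threshold (edgeR adjusted p = 0.0501), with a call in 6 of the 12 alternative fits. Ttk, the kinase gene at the head of the checkpoint (MPS1), had 115 and 91.9 CPM in DMSO and 74.2 and 52.3 CPM in YKL. Its log2 fold change was -0.71 ± 0.22 (SE; edgeR adjusted p = 0.11), and 4 of the 12 alternative fits called it, 1 of them without DMSO replicate 2. The kinetochore adaptor Bub3, the checkpoint gene with the highest level per length, had 368 and 345 CPM in DMSO and 231 and 301 CPM in YKL. Its groups did not overlap, and its log2 fold change of -0.42 ± 0.19 (SE) was not called (edgeR adjusted p = 0.247).

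No gene of the MAD branch was called. Mad2l1, which encodes the MAD2 that is loaded onto CDC20, had 169 and 149 CPM in DMSO and 169 and 187 CPM in YKL. Its log2 fold change was 0.16 ± 0.18 (SE; edgeR adjusted p = 0.67), with a 95% interval from -0.24 to 0.56. Its kinetochore anchor Mad1l1 was also at 0.16, with overlapping groups of 77 and 43.6 CPM in DMSO and 77 and 58.1 CPM in YKL. Mad2l1bp and Trip13, whose products together take MAD2 out of the checkpoint complex, were at 0.41 and -0.17. Mad2l2, which encodes the HORMA protein REV7 of DNA damage tolerance and is also known as an inhibitor of APC/C with CDH1, had 78 and 70.4 CPM in DMSO and 96.7 and 102 CPM in YKL. Mad2l2 was the only member of the 35 that was higher in YKL at an unadjusted p under 0.05, and it was not called (log2 fold change 0.42 ± 0.18, SE; edgeR adjusted p = 0.213).

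The remaining checkpoint genes serve the outer kinetochore. The 3 genes of the RZZ complex, which brings dynein and MAD1 to unattached kinetochores, were at -0.40 (Kntc1), -0.26 (Zwilch) and 0.03 (Zw10). Its partners Zwint and Spdl1 were at -0.08 and -0.34. None of these 5 genes was called by edgeR or DESeq2.

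Securin and separase, the inhibitor and protease pair on which APC/C acts at anaphase, gave 0 calls in edgeR and in DESeq2, and 0 of the 2 had an unadjusted edgeR p under 0.05. Espl1, which encodes the protease separase, had 99.7 and 99.6 CPM in DMSO and 78.2 and 75.9 CPM in YKL. Its groups did not overlap and lay close together within each, with a log2 fold change of -0.37 ± 0.18 (SE; edgeR adjusted p = 0.26). Pttg1, which encodes securin, had 7.23 and 15.1 CPM in DMSO and 6.95 and 8.38 CPM in YKL. The DMSO libraries of Pttg1 enclosed a YKL library, its log2 fold change of -0.54 ± 0.40 (SE; edgeR adjusted p = 0.477) had the widest error of the 35 genes, and it was 0.05 without DMSO replicate 2.

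Levels can be compared between genes only per length, and the following values are CPM per kb of exon. The length is that of all annotated exons of a gene, such as 1868 bases for Cdc20 and 8390 for Mad2l1. It need not be that of the transcripts present, so the order of genes partly depends on the annotation. In DMSO the order was led by Cdc20 at 130 ± 34.4, Anapc5 at 118 ± 30.3 and Ube2c at 99.8 ± 17.6 (SD, n = 2). The differences between these means were within their SDs, but the order was the same in each DMSO library, at 154, 139 and 112 in replicate 1 and 105, 96.1 and 87.4 in replicate 2. Fbxo5 followed at 60.8 and Bub3 at 50.8. In YKL the order began with Anapc5 at 126, Fbxo5 at 68.2 and Cdc16 at 52.5, with Cdc20 in rank 4 at 41.1 and Ube2c in rank 8 at 28.1. Bub1 moved from rank 9 at 30.2 to rank 26 at 11.4. At the low end, Anapc10 was last of the 35 in both groups, at 3.06 in DMSO and 3.78 in YKL, beside Anapc15 at 5.36 and 4.90 and Pttg1 at 5.58 and 3.83.

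Ratios within a library do not depend on its scaling and set members of the machinery against each other; they were chosen after the values of the genes had been seen, so they describe and are not tested. With 2 libraries against 2, an exact two-sided permutation test cannot go below p = 0.333. Cdc20 stood at 7.18 and 7.42 times the median core subunit per kb in DMSO and at 2.44 and 2.61 times in YKL. Ube2c stood at 5.24 and 6.16 times that median in DMSO and at 1.81 and 1.64 times in YKL. Both ratios were lower in each YKL library than in either DMSO library.

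Between the activators, Cdc20 over Fzr1 was 5.69 and 4.13 per kb in DMSO and 2.89 and 3.02 in YKL, so Cdc20 was lower against Fzr1 although Fzr1 also fell. The inhibitor over its target, Fbxo5 over Fzr1, was 2.52 and 2.09 in the DMSO libraries against 4.91 and 4.89 in the YKL libraries. Between the E2 enzymes, Ube2c over Ube2s was 5.82 and 4.84 in the DMSO libraries against 2.53 and 2.07 in the YKL libraries. The checkpoint effectors stood higher against their target in YKL: Mad2l1 over Cdc20 was 0.131 and 0.168 in DMSO against 0.5 and 0.531 in YKL, and Bub1b over Cdc20 was 0.303 and 0.363 against 0.646 and 0.524. In each of these 7 ratios the groups did not overlap. Each holds Cdc20, Ube2c or Fzr1, which were called lower in the same libraries, so the separation largely restates those calls.

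Of the other 4 ratios computed, 2 separated the groups and 2 did not. Bub1 over Bub3 was 0.594 and 0.595 in DMSO against 0.431 and 0.2 in YKL, and Mad2l1 over Bub3 was 0.385 and 0.36 against 0.612 and 0.518. Bub1b over Bub3 was 0.888 and 0.777 in DMSO against 0.79 and 0.511 in YKL, so the groups overlapped. Separase over securin, Espl1 over Pttg1, was 3.15 and 1.51 in DMSO and enclosed the YKL libraries at 2.57 and 2.07. All of these ratios concern transcripts, not proteins, and their absolute size depends on the annotated exon lengths.

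**Figure D3:**
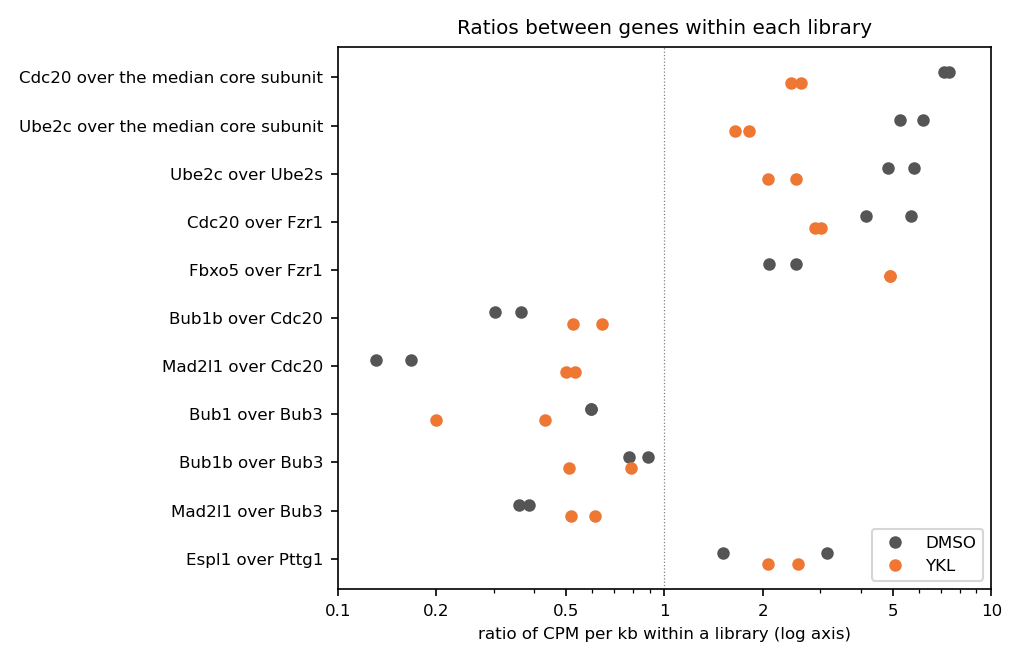
Ratios between genes within each library, from CPM per kb, on a log axis, with the 2 DMSO libraries in grey and the 2 YKL libraries in orange. Of the 11 ratios computed, all shown, 9 have the DMSO and YKL points apart and 2 do not (Bub1b over Bub3 and Espl1 over Pttg1). Most of the separated ratios hold a gene called lower in the same libraries. Cdc20 over the median core subunit was at 2.44 and 2.61 in YKL against 7.18 and 7.42 in DMSO.

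The cell cycle homology region and the CCAAT box were searched on both strands in the RefSeq promoter windows, which run from 250 bases before to 50 bases after a start. Windows were matched for 33 of the 35 genes, all but Cdc23 and Zwilch, and 6 genes had a second window. The cell cycle homology region was found in 15 of the 33 (45.5%), against 16.1% of the 11719 tested genes that have a window and 19.1% of all 32544 windows. It was in 2 of 13 core subunit genes, 4 of 5 genes of the activator class and 8 of 13 checkpoint genes. The CCAAT box was found in 17 of the 33 (51.5%), against 42.6% of tested genes and 37.4% of all windows. Both motifs occurred together in 10 genes (30.3%), against 8% of tested genes, and those 10 were 0 of 13 core genes, 3 of 5 of the activator class, 6 of 13 checkpoint genes and Espl1.

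Among the genes that fell, the promoters of Cdc20, Ube2c and Bub1 held both motifs. Positions are of the first base of a match, counted back from the start as negative numbers. The homology region of Cdc20 is at -18, between CCAAT boxes at -53 and -8. That of Ube2c is at -29, with the nearest of its 6 CCAAT boxes at -57. That of Bub1 is at base 15 of the transcript, with CCAAT boxes at -68 and -42. Fzr1 has a CCAAT box at -79, and the core gene Cdc27 has CCAAT boxes at -102 and -66, with no match to the homology region in either window. The 10 genes with both motifs had a median log2 fold change of -0.57, from -1.83 to 0.17, with 9 below 0 and 3 called lower. The 11 members with neither had a median of -0.13, from -0.54 to 0.41, and none of them was among the 4 called. The 5 with the homology region alone had a median of -0.17 with 0 called. The 7 with the CCAAT box alone had a median of 0.10, above that of the members with neither, with 1 called. Over all tested genes the medians were close together, at -0.07 for the 937 genes with both and 0.01 for the 5783 with neither. The shares called lower in these 2 classes were 3.09% and 1.26%. With 1 motif alone, the medians were -0.04 (homology region) and 0.02 (CCAAT box), with 1.8% and 1.46% called lower. Of the 10 genes with both motifs, 7 were not called: Fbxo5, Bub1b, Bub3, Ttk, Kntc1, Spdl1 and Espl1. Motif matches are letters in a window, not binding sites. The other 2 motifs searched were about as frequent in the members as over all tested genes. The GC box (GGGCGG) was in 69.7% against 67.4% (35.9% of all windows), and the E2F-type words TTTCGCGC, TTTGGCGC and TTTCCCGC were in 3.03% against 3.84% (1.86% of all windows).

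**Figure D4:**
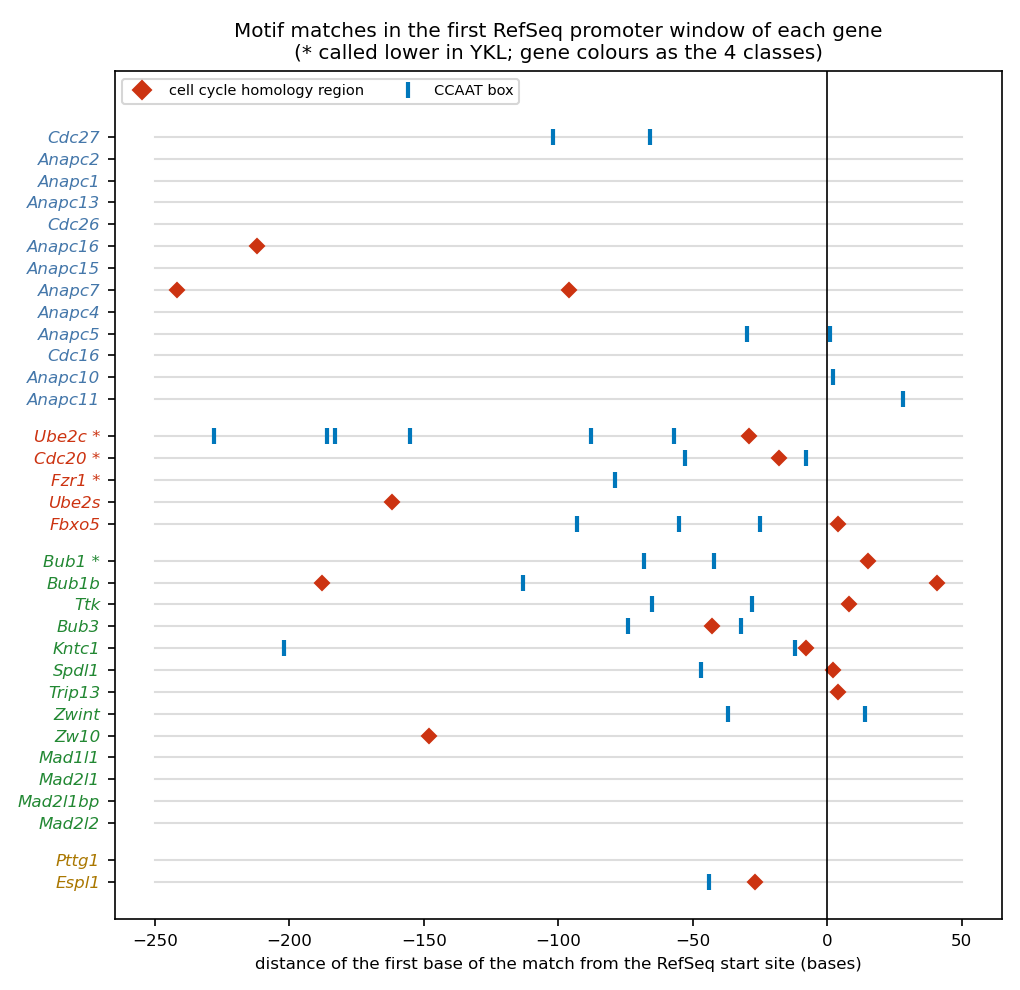
Matches to the cell cycle homology region (diamonds) and the CCAAT box (bars) in the first RefSeq window of 33 genes, by the distance in bases of the first base of the match from the start site (x axis). Gene names are coloured by class, with stars on the 4 genes called lower in YKL. Of the starred genes 3 carry both motifs, as do 7 genes without a star, and no core subunit gene does.

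Related gene lists show what surrounded the machinery. Of 23 genes for substrates of the APC/C, 9 were lower and 1 was higher by edgeR, with a median log2 fold change of -0.62. Over all genes tested, edgeR called 1.44% lower and 2.1% higher. Ccnb2, a mitotic cyclin, was at -1.53 (edgeR adjusted p = 0.0105), Hmmr, a spindle protein, at -1.47 (0.0133) and Aurkb, the kinase of the chromosomal passenger complex, at -1.03 (0.0227). The substrate that rose was Cdc6, a replication licensing factor that CDH1 directs to destruction in G1, at 0.93 (edgeR adjusted p = 0.0273). Of 12 genes of the outer kinetochore network, the platform of the checkpoint, 2 were lower, with a median of -0.27. These were Ska1 at -1.36 (edgeR adjusted p = 0.0395) and Nuf2 at -1.03 (0.0409).

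Cohesin, which separase cleaves, and the SCF ligase were the other lists. Of 13 genes for cohesin and its regulators, 0 were called by edgeR, with a median of 0.00. An unadjusted edgeR p under 0.05 was seen in 3 (all lower, against 9.9% of all genes tested). DESeq2 called 1 lower, against 5.61% of all its genes. Rad21, the cohesin subunit that separase cuts, was at -0.64 (edgeR adjusted p = 0.112) and Smc1a at -0.37 (0.281). Of 13 genes of the SCF ubiquitin ligase, which acts mainly at other times in the cycle, 0 were called by edgeR or DESeq2 and 1 had an unadjusted edgeR p under 0.05, with a median of 0.02. Its adaptor Skp1a was at 0.16 and its cullin modifier Nedd8 at 0.29. Differences between lists were not tested.

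**Figure D5:**
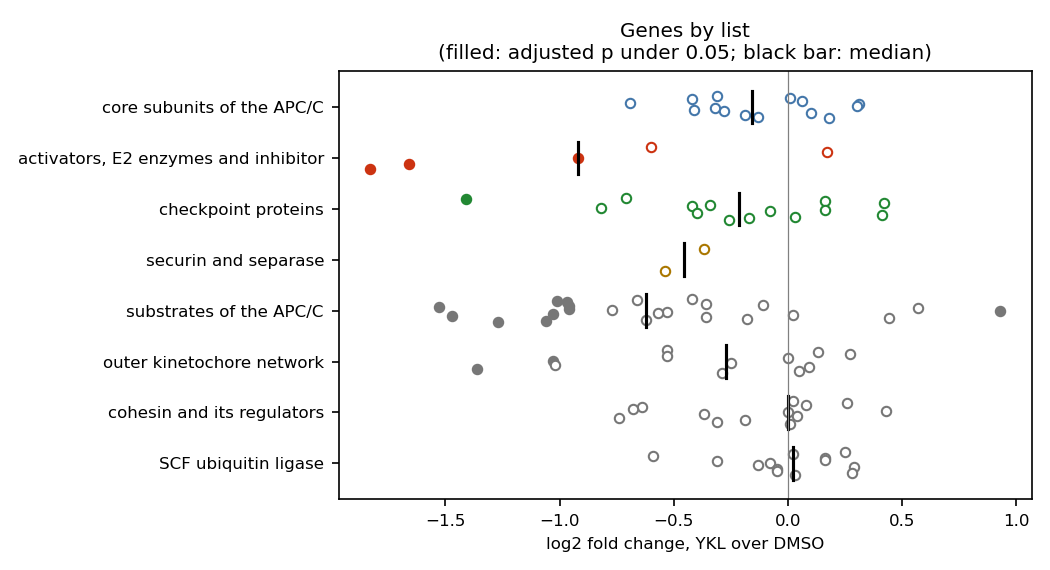
Log2 fold change of YKL over DMSO (x axis) of single genes by list (rows), with filled points called at an edgeR adjusted p under 0.05 and a black bar at the median. The medians run from -0.92 for activators, E2 enzymes and inhibitor to 0.02 for the SCF ubiquitin ligase, and filled points occur in the activator, checkpoint, substrate and outer kinetochore rows.

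In the authors' deposited table, which gives a comparison of their own for 15936 genes, 11 of the 35 genes were lower and 0 were higher at an adjusted p under 0.05. Over all its genes, the authors' deposited table called 2217 lower and 2211 higher, 13.9% each. All 35 signs in the authors' deposited table were those of edgeR. The authors' deposited table gave log2 fold changes of -1.73 for Ube2c, -1.50 for Cdc20, -1.35 for Bub1 and -0.90 for Fzr1. The other genes that it called lower were Bub1b, Ttk, Ube2s, Bub3 and 3 of the 14 core subunits. Those core subunits were Cdc27 at -0.66, Anapc2 at -0.43 and Cdc23 at -0.41.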

How the data were processed

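The tools behind the counts were STAR 2.5.2b for alignment (build mm10) and featureCounts, per the submitters' processing notes. The strand setting is not given in the sources used here. The deposited table gives, for each gene, its raw count in every library and its exon length. The authors also deposited a log2 fold change and an adjusted p-value per gene, and DESeq2 is named in the submitters' processing notes. The number of other columns of per-sample values was 0.

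Counts were tested with edgeR 4.0.16 in R 4.3.3: filterByExpr (minimum count 10, minimum total 15), TMM scaling, robust quasi-likelihood tests with 2 residual degrees of freedom, and Benjamini-Hochberg adjustment over all 16749 genes, called at an adjusted p under 0.05. Each standard error is the size of the log2 fold change over the root of its F statistic, and 95% intervals use the degrees of freedom of that test. The spread between libraries of a group, as edgeR's common coefficient of variation, was 25%. The DMSO libraries held 34189709 and 31082753 counts, the YKL libraries 29817387 and 32956564; levels are TMM-scaled CPM, divided by exon length in kb where genes are compared. The procedure was tested on simulated data with a smaller spread between libraries than these data have, so that run does not show its performance at their spread. A chi-square comparison of the libraries in a group gave 86.6 per degree of freedom in DMSO and 37.1 in YKL, so no library was a repeat of another.

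The 35 genes and the related lists were chosen with earlier results of these data known. Named in full were the called genes and, per class, the uncalled gene with the highest level per length and the one with the largest log2 fold change; Ttk, Mad2l1 and Mad2l2 were given in full after their values were seen. In the related lists, up to 3 called genes per direction by p, or else the 2 most abundant, were named. As alternatives, scaling was by RLE, by total count or by the upper quartile, the filter was dropped or set at 5 CPM in 2 libraries, replicate number entered as a block, the robust prior was dropped, DESeq2 1.42.0 was run, and each library was left out in turn. Promoters came from RefSeq windows of 300 bases (GRCm38.p6). Exon overlaps were read from the coordinates in the deposited count table. Shared 50-base windows were counted between GENCODE M21 transcripts. Figures were drawn with matplotlib 3.10.9.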

Additional observations from a re-analysis of the deposited data

How the results depend on the processing

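None of the 4 called genes changed sign in any of the 12 alternatives. Of 420 recomputed fold changes of the 35 genes, 17 took the other sign, in 9 uncalled genes. The count of the 35 genes called lower, 4 in the report, was 2 with total count scaling, 7 without the filter on low counts, 7 with the replicate number as a block, 8 with DESeq2 and 2 to 8 when a library was left out, and 0 were called higher in any alternative. Core subunits called lower numbered 1 without the filter, 1 with the block, 1 with DESeq2 and 0 to 1 with a library left out, each time Cdc27. Checkpoint genes called lower numbered 2 with RLE scaling, 0 with total count scaling, 3 without the filter, 2 with the filter of 5 CPM, 3 with the block, 3 with DESeq2 and 0 to 3 with a library left out. Over all genes, where 593 were called in the report, 169 were called with total count scaling, 331 with upper quartile scaling, 1740 without the filter, 1387 with the block, 236 without the robust prior, 1599 with DESeq2 and 71 to 2453 with a library left out. The causes of these changes were not tested. Same-numbered libraries correlated at 0.152 in their deviations from the group means over 2 pairs, and the labels do not say that a number marks a shared culture, so the block is given as an alternative only.

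Anapc7, at 0.01 in the report, was at -0.01 with RLE scaling, -0.03 without the filter and -0.01 with DESeq2. With a library left out, log2 fold changes ran from -0.33 to 0.53 for Anapc4, -0.18 to 0.39 for Anapc5, -0.34 to 0.41 for Anapc7, -0.03 to 0.36 for Fbxo5, -0.22 to 0.63 for Mad1l1, -0.45 to 0.14 for Trip13, -0.24 to 0.26 for Zw10, -0.30 to 0.14 for Zwint and -0.97 to 0.05 for Pttg1. With 2 libraries in a group, standard errors of the 35 genes were 0.18 to 0.40 on the log2 scale. Changes of about 2-fold could therefore be missed, as well as smaller ones. The interval reached a 2-fold fall in 5 of the 31 uncalled genes and lay within a 2-fold change in 26. Outside the 35, the outer kinetochore gene Knl1 was at -1.02 and was not called (edgeR adjusted p = 0.0622).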
